A study of Acomys cahirinus and Mus musculus with 10 samples.

Results

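Hyaluronan is a long, unsulfated sugar polymer of the extracellular matrix, and 8 genes that make it, cut it or bind it were followed through the healing of an ear punch in *Acomys cahirinus*, the African spiny mouse, and *Mus musculus*. The genes were chosen by name as *Has1*, *Has2*, *Has3*, *Hyal1*, *Hyal2*, *Cd44*, *Vcan* and *Tnfaip6*, and they are 8 of the 14053 genes that could be named in both species. Each species gave 15 animals, 30 in all, and ear RNA was taken from 3 of them at each of D0, D5, D10, D15 and D20. The D0 tissue was uninjured ear, and the later days were counted from a 4-mm biopsy punch through the ear. The animals were sexually mature females, and *M. musculus* was the outbred CD1 strain. No genetic change, transgene or drug treatment is given for any group, apart from isoflurane anaesthesia for the punch. The labels call the later *A. cahirinus* tissue regenerating and the later *M. musculus* tissue fibrotic. A sample was a ring of whole ear tissue just inside the healing edge, so it mixed epidermis, dermis, cartilage, muscle and blood cells, and in such bulk tissue fewer cells of a type and less RNA per cell cannot be told apart.

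The deposited tables hold, for each species and later day, the change from D0 over the 3 animals of a group and the authors' posterior probability that a gene differed. No value per animal was used here, so no spread between animals can be given. A gene was counted as called where that probability was at least 0.95, and a change is given as the log2 ratio of the later group mean to the D0 mean, positive where the gene was higher after injury. Group means are in normalised reads per library and were computed back from the tables on one scale per species. The 4 days of a species share the same D0 animals, so they are not independent, and the species were normalised apart, so levels are compared within a species only. The group means summed to between 14201880 and 16318349 normalised reads in *A. cahirinus* and between 7440295 and 7993235 in *M. musculus*. The lowest means fell on 3 steps in each group, as 3 libraries would give, other than *A. cahirinus* D15 with 2 steps, and whether a library is missing there was not tested.

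Hyaluronan is extruded through the plasma membrane by 3 synthases, HAS1, HAS2 and HAS3, from the activated sugars UDP-glucuronic acid and UDP-N-acetylglucosamine. HYAL2 at the cell surface and HYAL1 in the lysosome are the widely expressed hyaluronidases, which cut the polymer to shorter pieces. Outside the cell the polymer is held by the receptor CD44, by the large aggregating proteoglycan versican (*Vcan*) and by TSG-6 (*Tnfaip6*), an inflammation-induced protein that moves heavy chains of inter-alpha-inhibitor onto hyaluronan. In skin, hyaluronan is known for filling the dermis and early wounds with a hydrated matrix.

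The *A. cahirinus* values belong to components of a de novo assembly, which can hold several contigs, and not to annotated genes. The sequence match is therefore what ties each value to its gene. Where a contig is given a value below, it is that of its component, while lengths are those of the contig. The chosen contigs aligned to the *M. musculus* transcripts at 94.6% identity for *Has3*, 93.0% for *Has2*, 92.7% for *Tnfaip6*, 90.9% for *Has1*, 88.9% for *Hyal1*, 88.1% for *Hyal2*, 88.0% for *Cd44* and 82.7% for *Vcan*, and each had the named gene as its best hit. Stretches of 90 coding bases from the middle of the alignment are shown for 5 genes, the synthases with called changes in both species and the members whose changes differed most between them. They are read 5′ to 3′ on the coding strand, with capitals at the bases where the species differ.
Has2 M. musculus: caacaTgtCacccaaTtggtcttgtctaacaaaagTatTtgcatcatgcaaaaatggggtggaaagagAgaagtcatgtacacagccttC
Has2 A. cahirinus: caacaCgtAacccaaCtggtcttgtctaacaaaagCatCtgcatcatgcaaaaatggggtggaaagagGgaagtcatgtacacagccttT
Has3 M. musculus: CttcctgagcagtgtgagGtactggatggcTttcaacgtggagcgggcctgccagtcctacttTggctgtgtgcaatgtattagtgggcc
Has3 A. cahirinus: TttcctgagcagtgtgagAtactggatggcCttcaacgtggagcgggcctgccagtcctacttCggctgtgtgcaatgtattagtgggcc
Hyal1 M. musculus: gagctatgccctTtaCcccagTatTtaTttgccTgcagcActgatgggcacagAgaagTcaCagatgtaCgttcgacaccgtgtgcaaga
Hyal1 A. cahirinus: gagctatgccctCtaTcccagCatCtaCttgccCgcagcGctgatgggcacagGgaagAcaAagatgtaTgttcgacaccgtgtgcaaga
Vcan M. musculus: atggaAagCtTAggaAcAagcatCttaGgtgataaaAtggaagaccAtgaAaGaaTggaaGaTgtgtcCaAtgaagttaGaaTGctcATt
Vcan A. cahirinus: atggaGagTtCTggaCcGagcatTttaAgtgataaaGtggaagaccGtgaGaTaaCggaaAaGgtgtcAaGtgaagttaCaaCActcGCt
Tnfaip6 M. musculus: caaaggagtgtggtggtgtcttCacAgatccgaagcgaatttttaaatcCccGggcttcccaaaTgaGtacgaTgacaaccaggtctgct
Tnfaip6 A. cahirinus: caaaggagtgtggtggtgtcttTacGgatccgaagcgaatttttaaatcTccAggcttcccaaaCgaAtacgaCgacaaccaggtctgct

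In GRCm38 the *Has2* stretch lies in exon 2 of 4 at chr15:56681611-56681700 on the minus strand, and 7 of its 90 bases differ. The *Has3* stretch is in the last exon, exon 4 of 4, at chr8:106877934-106878023 on the plus strand, and 4 bases differ. The *Hyal1* stretch, in exon 2 of 4 at chr9:107578290-107578379 on the plus strand, has 11 differences. The *Vcan* stretch, in exon 8 of 15 at chr13:89690560-89690649 on the minus strand, has 22, the most of the 5. The *Tnfaip6* stretch is in exon 4 of 6 at chr2:52050843-52050932 on the plus strand and has 7. The remaining members are *Has1* at chr17:17843323-17855205 on the minus strand, *Hyal2* at chr9:107567945-107572779 on the plus strand, next to *Hyal1*, and *Cd44* at chr2:102811141-102901665 on the minus strand. *Has2*, *Vcan* and *Hyal1* overlap the opposite-strand genes *Has2os*, *Gm4117* and *Gm16343*. The libraries were strand-specific, and whether reads were counted by strand is not given in the sources used here.

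The hyaluronan genes called after injury were nearly all called higher, and the days and genes called were not the same in the species, a difference that has no test. In *A. cahirinus* 7 of the 8 were called higher at D5, 6 of 8 at D10, 3 at D15 and then 4 at D20, and none was called lower on any day, where 11.2%, 11.7%, 14.6% and 15.0% of the genes named in both species were. Over the genes named in both species, 31.4%, 21.3%, 18.4% and 12.9% were called higher on those days, and over all assembly components 1.78%, 1.28%, 1.33% and 0.948%. In *M. musculus* 5 of the 8 were called higher at D5, D10 and D15 and 4 at D20, where the share over the genes named in both species was 23.2%, 21.2%, 18.5% and 17.0%, and over all genes 16.5%, 15.1%, 13.2% and 12.3%. One member, *Hyal1*, was called lower in *M. musculus* at D10 and D15, and the share of genes named in both species called lower there was 17.1%, 17.6%, 16.0% and 15.4% from D5 to D20. The median log2 change of the 8 members was 1.98 (D5), 0.95 (D10), 0.62 (D15) and 0.60 (D20) in *A. cahirinus*, against 0.21, 0.10, 0.04 and −0.03 for the genes named in both species. In *M. musculus* the members' median was 1.64, 1.16, 0.92 and 0.68, against 0.04, 0.05, 0.04 and 0.03. All 8 members had a mean of at least 10 in some group of every comparison, apart from *A. cahirinus* *Has1* at D10, D15 and D20.

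**Figure D1:**
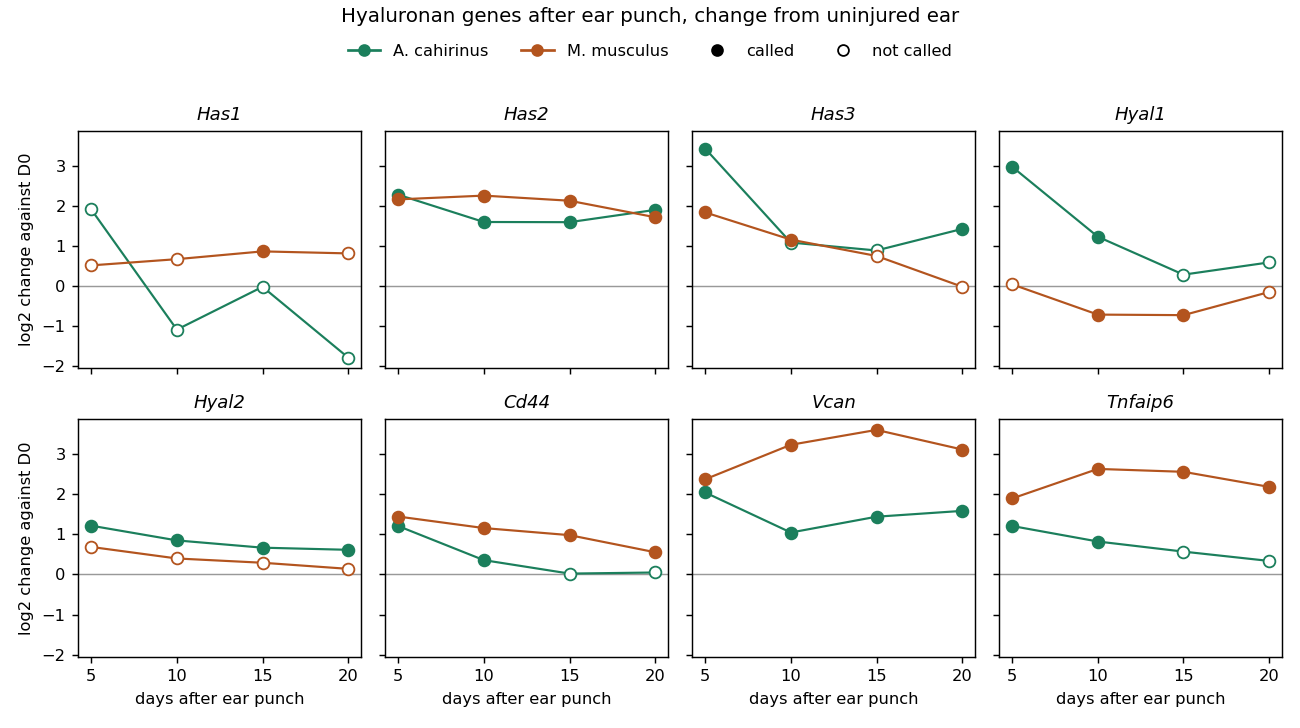
Log2 change from uninjured ear (y axis) against days after ear punch (x axis) for each hyaluronan gene, with *A. cahirinus* in green and *M. musculus* in orange and filled points where the change was called. Each point is a group of 3 animals with no error shown because the tables hold none; *Has2* lies between 1.59 and 2.28 in both species, while *Hyal1* is above 0 in *A. cahirinus* and falls to −0.73 in *M. musculus*.

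Among the synthases, *Has2*, which encodes the main fibroblast enzyme, was called higher on all 4 days in both species. Its *A. cahirinus* mean was 184 normalised reads at D0, 893 (D5), 557 (D10), 555 (D15) and 687 (D20), so every later group stood at least 3.02-fold above the uninjured ear. *M. musculus* had 94.2 (D0), 422 (D5), 450 (D10), 412 (D15) and 310 (D20). The log2 changes were 2.28, 1.60, 1.59 and 1.90 in *A. cahirinus*, compared with 2.16, 2.26, 2.13 and 1.72 in *M. musculus*, and the species differed by no more than 0.66 on any day. *Has2* was the member with the smallest mean difference between the species, −0.22 on the log2 scale.

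*Has3*, whose enzyme is prominent in keratinocytes, rose most at D5 in both species. In *A. cahirinus* the mean of its coding component went from 15.1 reads at D0 to 163 at D5, a 10.8-fold rise, then 32.1 (D10), 28.0 (D15) and 40.6 (D20). It was called at D5 and D20 only. At D10 its log2 change of 1.09 had a posterior probability of 0.00, and at D15 the change of 0.89 missed the threshold at 0.945. *M. musculus* means were 147 (D0), 527 (D5), 329 (D10), 248 (D15) and 146 (D20), called higher at D5 and D10, with log2 changes of 1.84 and 1.16. By D20 the *M. musculus* mean was at its D0 level, with a log2 change of −0.02, whereas the *A. cahirinus* mean was still 2.69-fold up. Another *A. cahirinus* component, over the 3′ UTR and with a D0 mean of 14.9 reads, was at 0.47 at D5 and −0.04 at D20, not called. Of 5 keratinocyte markers listed, *Dsg3* was called higher at D5 in both species, at 2.25 for *A. cahirinus* and 1.19 for *M. musculus*. *Krt5* and *Krt14* were called higher in *M. musculus*, at 0.83 and 2.25, and so were the *A. cahirinus* components matched to them, at 2.77 and 1.29. *Krt15* and *Trp63* were called lower in *M. musculus* at D5, at −2.11 and −0.48. In *A. cahirinus* *Trp63* was at 0.19, not called. There *Krt14* and *Krt15* share 1 component, whose best hit was *Krt15*. The 1.29 is thus the *Krt15* value, called higher, against −2.11 in *M. musculus*. The *A. cahirinus* component of *Krt5* had another gene as best hit. At D20 in *A. cahirinus* the component shared by *Krt14* and *Krt15* was at −0.74 and *Trp63* at −0.62, both called lower. The *Krt5* component was at 0.57, called higher, and *Dsg3* at −0.09, not called. In *M. musculus* only *Trp63* was called at D20, at −1.015. The part of keratinocytes in the *Has3* values was not tested.

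*Has1* was the least abundant synthase in *A. cahirinus* and the least certain member. The contig chosen for it had a mean of 7.82 reads (D0), 29.5 (D5), 3.67 (D10), 7.71 (D15) and 2.26 (D20), and none of these changes was called. At the D20 mean the counting error alone was about 38.1%, and at D0 about 20.7%. In *M. musculus* *Has1* had 36.9 reads at D0 and 52.8, 58.8, 67.2 and 64.9 on the later days, and only D15 was called, at a log2 change of 0.87. The *M. musculus* values lay close together after injury, between 1.43- and 1.82-fold above D0.

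Per kilobase of transcript, the makeup of the synthases differed between the species already in uninjured ear. *Has2* made up 84.1% of the summed level of the 3 synthases in *A. cahirinus* at D0 and 34.2% in *M. musculus*, where *Has3* held 38.7% and *Has1* 27.1%. After injury the *Has2* share was 77.1% (D5), 92.1% (D10), 91.6% (D15) and 92.4% (D20) in *A. cahirinus*. In *M. musculus* it was 46.3%, 55.7%, 56.6% and 56.6%. The lowest *A. cahirinus* share was at D5, when *Has3* reached 17.9%. The *A. cahirinus* lengths are those of assembled contigs, which can be shorter than the transcript. With the longest contig or transcript of each gene in place of the aligned one, the *Has2* share at D0 was 70.6% for *A. cahirinus* against 38.6% for *M. musculus*, and the *A. cahirinus* share was above the *M. musculus* share on every day but closest at D5, with 60.4% against 48.9%. The counts behind these shares are group sums, and no test of the difference could be made.

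**Figure D2:**
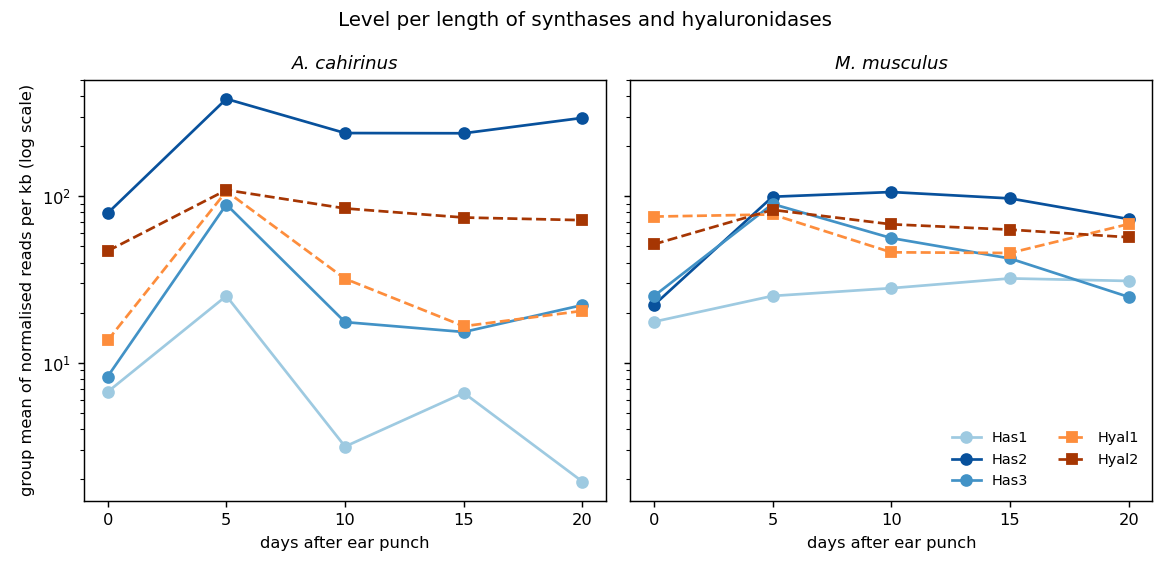
Group mean of normalised reads per kb of contig or transcript (y axis, log scale) against days after ear punch (x axis) for the 3 synthases (blue, circles) and both hyaluronidases (orange, squares, dashed), by species. Levels are comparable within a panel only; with the aligned contig length drawn here *Has2* is the highest of the 5 genes at every time in *A. cahirinus*, from 79.2 at D0 to 385 at D5, and with the longest contig its D0 level of 36.0 is below *Hyal2* at 46.9, while in *M. musculus* it starts below *Hyal1*, *Hyal2* and *Has3*.

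Of the hyaluronidases, *Hyal1* was called in opposite directions in the species. *Hyal1*, the lysosomal enzyme, had an *A. cahirinus* mean of 22.9 reads (D0), 180 (D5), 53.7 (D10), 27.9 (D15) and 34.5 (D20). The D5 and D10 groups were called, 7.87-fold and 2.35-fold above D0, and the D15 and D20 values of 1.22-fold and 1.51-fold were not. In *M. musculus* the mean was 225 (D0), 232 (D5), 137 (D10), 136 (D15) and 203 (D20), called lower at D10 and D15 with log2 changes of −0.71 and −0.73. The opposite calls fell on the same day at D10. The *A. cahirinus* change was above the *M. musculus* change on all 4 days, by 2.93, 1.94, 1.01 and 0.74 on the log2 scale, which is the largest mean difference upwards among the members, at 1.66. The difference between species has no test.

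Marker genes of white blood cells were also called higher at D5. All 5 macrophage markers listed were called higher then in both species, and the summed level of the 4 that were the best hit of their component was 4.94 times D0 in *A. cahirinus* and 2.98 times in *M. musculus*. Of 5 neutrophil markers listed, *Csf3r* and *Cxcr2* had values in both species and were called higher at D5 in both, at 5.65 and 8.51 for *A. cahirinus* and 2.53 and 0.52 for *M. musculus*. The *A. cahirinus* change of *Cxcr2* started from a D0 mean of 0.586 reads, with a counting error of about 75.4%, so its size is uncertain. *S100a8* and *S100a9*, the abundant neutrophil calgranulins, were called higher at D5 in *M. musculus*, 257-fold and 462-fold above D0, and had no *A. cahirinus* component, so the lists are not the same in the species. The *M. musculus* *Hyal1* mean was 1.03 times D0 on that day. The part of these cells in the *Hyal1* values was not tested. In *M. musculus* the 3′ end of *Hyal1* overlaps *Naa80* and *Hyal3* on the same strand, so reads there may be shared between the 3 genes. *Hyal3*, another hyaluronidase gene, was also lower in *M. musculus*, with log2 changes of −0.85 (D5), −0.70 (D10), −1.02 (D15) and −0.18 (D20), called at D5 and D15. The *A. cahirinus* contig that spans the same end had *Naa80* as its best hit and changed by 1.43 at D5 and 0.30 at D10, called at D5 only.

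*Hyal2*, the membrane-anchored enzyme that makes the first cut, was called higher on all 4 days in *A. cahirinus* and on none in *M. musculus*, a difference that has no test. Its *A. cahirinus* mean was 97.4 at D0 and 226, 176, 155 and 149 on the later days, with log2 changes of 1.22, 0.85, 0.67 and 0.61. In *M. musculus* it was 95.3 at D0 and 153, 126, 117 and 105 later, with log2 changes of 0.69, 0.40, 0.29 and 0.14. Both species thus had their highest mean at D5 and lower means on each day after it, and the *A. cahirinus* change was the larger by 0.38 to 0.53 on every day.

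Summed per kilobase, the 3 synthases stood at 1.55 times the pair of hyaluronidases in uninjured *A. cahirinus* ear and at 0.511 times in *M. musculus*. The ratio was 2.31, 2.23, 2.86 and 3.46 on the later days for *A. cahirinus*, against 1.34, 1.67, 1.58 and 1.03 for *M. musculus*. It was highest at D20 in *A. cahirinus* and at D10 in *M. musculus*, whichever length was used. The values turn on the lengths used, that of *Has2* in *A. cahirinus* and those of *Has1* and *Has3* in *M. musculus*: with the longest contig or transcript the ratio was 0.841, 1.34, 1.11, 1.43 and 1.71 from D0 to D20 for *A. cahirinus*, against 0.453, 1.27, 1.56, 1.45 and 0.929 for *M. musculus*. The *A. cahirinus* ratio at D0 was then below 1, and at D10 and D15 it was below that of *M. musculus*. Within the pair, *Hyal2* was 3.44 times *Hyal1* at D0 in *A. cahirinus*, 1.02 times at D5 and 3.50 times at D20, so the D5 peak of *Hyal1* brought the genes level. In *M. musculus* *Hyal2* was 0.682 times *Hyal1* at D0, 1.47 times at D10 and 0.833 times at D20. Both ratios also rest on what is counted as *Hyal1*. Its *M. musculus* reads may be shared with *Naa80* and *Hyal3* at the 3′ end. The *A. cahirinus* component over that end, with a D0 mean of 146 reads, was not counted to *Hyal1*, whose own mean was 22.9. The effect on the ratios was not tested.

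The 3 binding members had a higher log2 change in *M. musculus* than in *A. cahirinus* on each of the 4 days, a difference that has no test. *Cd44*, the main hyaluronan receptor and the most abundant member per kilobase in uninjured ear of both species, rose 2.31-fold at D5 in *A. cahirinus*, from a mean of 2749 to 6352 reads. It was 3521 at D10, still called at a log2 change of 0.36, and then 2790 at D15 and 2844 at D20, within 1.03-fold of D0. *M. musculus* *Cd44* was 1370 (D0), 3731 (D5), 3057 (D10), 2705 (D15) and 2012 (D20), called higher on all 4 days, the last with a posterior probability of 0.955. Its log2 changes of 1.45, 1.16, 0.98 and 0.55 were lower on each later day, and *Cd44* was 1.47-fold above D0 in *M. musculus* at D20.

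*Vcan*, the proteoglycan that links hyaluronan to the rest of the matrix, was called higher on all days in both species and reached the largest change of any member. In *M. musculus* its mean rose from 522 at D0 to 2709 (D5), 4919 (D10) and 6365 (D15), which was 12.2-fold, and was 4534 at D20. In *A. cahirinus* it rose from 831 to 3432 at D5, then was 1718 (D10), 2258 (D15) and 2498 (D20). The *A. cahirinus* peak was therefore at D5, when the log2 changes of 2.05 and 2.38 were nearly alike, and the *M. musculus* peak at D15, when they were 1.44 and 3.61. The difference between species was −2.19 (D10), −2.17 (D15) and −1.53 (D20). Per kilobase *Vcan* passed *Cd44* in *M. musculus* only at D15 and D20, with 512 against 479 and 365 against 356. In *A. cahirinus* it stayed below *Cd44* at every time, with 236 against 504 at D20. The *M. musculus* levels use a single length per gene, 12432 bp for *Vcan* and 5653 bp for *Cd44*, which is also the longest transcript of each. The effect of shorter transcripts on the order of *Vcan* and *Cd44* was not tested.

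*Tnfaip6*, which encodes TSG-6, had an *A. cahirinus* mean of 95.4 reads (D0), 221 (D5), 169 (D10), 142 (D15) and 121 (D20), called higher at D5 and D10 with log2 changes of 1.21 and 0.82. The later changes of 0.57 and 0.34 were not called. *M. musculus* had 35.9 reads (D0), 134 (D5), 223 (D10), 212 (D15) and 163 (D20), called higher each time and 6.21-fold up at D10. *Tnfaip6* had the most negative mean difference between species among the members, −1.59, followed by *Vcan* at −1.55. *Has1* came next at −0.96, though its difference was above 0 at D5 and none of its *A. cahirinus* changes was called. *Cd44* followed at −0.63. The differences of *Tnfaip6*, *Vcan* and *Cd44* were below 0 on all 4 days. Fibroblast markers are set beside these values. The collagen genes *Col1a1* and *Col1a2* were called higher on all 4 days in *M. musculus*, at 2.31 to 3.89, and at D10, D15 and D20 in *A. cahirinus*, at 2.08 to 3.11. *Fbn1* was called higher on all days in both, *Dcn* was called lower at D5, D10 and D15 in *A. cahirinus* and on no day in *M. musculus*, and *Pdgfra* was not placed. The summed level of the 4 was 4.22, 8.77, 9.24 and 9.20 times D0 for *M. musculus*, against 0.877, 2.89, 4.27 and 3.47 times D0 in *A. cahirinus*, and the collagens made up most of it after injury, other than at D5 in *A. cahirinus*. The part of fibroblast number in the *Vcan* and *Tnfaip6* values was not tested. Of 5 skeletal muscle markers, *Myh4*, *Tnnt3* and *Ttn* were called lower on every day in both species, and so was *Ckm*, whose *A. cahirinus* component had another gene as best hit. *Acta1* was called lower on every day in *M. musculus* and higher at D5, D10 and D15 in *A. cahirinus*, where the same holds of its component.

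For 5 members more than one *A. cahirinus* component had the gene as its best hit, which gives a second reading of the same gene. Of the 4 *Vcan* components, 1 aligns best to a shorter transcript, from its start into its 3′ UTR. The others align to exon 7, to exon 8 and to the last exons of the longer transcript. In that order the log2 changes at D5 were 2.41, 1.86, 2.05 and 2.03, all called. Over the later days each was called except the exon 7 component at D10, with 0.70. Exons 7 and 8 code for the stretches that carry the glycosaminoglycan chains. The component at the 3′ UTR of *Has2* changed by 2.20, 1.71, 1.95 and 2.02, close to the coding one. The 3 *Cd44* components were all called at D5, with 1.42 near the 5′ end, 0.80 within the variable region and 1.21 at the 3′ end. At D20 the 5′ component was called at 0.32 where the chosen one was not, at 0.05.

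Components of *Has1* and *Has3* differed as well. A contig over the first exons of *Has1* was called higher at D5, with a log2 change of 2.88 and a posterior probability of 0.999, where the chosen contig over the last exons had 1.91 and 0.912. Counting a member as called when any of its components was called made *Has1* called at D5, so that all 8 members were. The same rule made *Cd44* called at D20, through its 5′ component at 0.32. This way of counting was added after the data were seen. For *Has3*, the coding contig rose by 3.43 at D5, while a contig that aligns over 173 bp to the 3′ UTR, with a similar D0 mean of 14.9 reads, changed by 0.47 and was not called on any day. Summing the components lowered the *Has3* change at D5 to 2.55 and the mean difference between species from 0.77 to 0.20. Whether the 3′ UTR contig is transcribed as part of *Has3* was not tested.

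**Figure D3:**
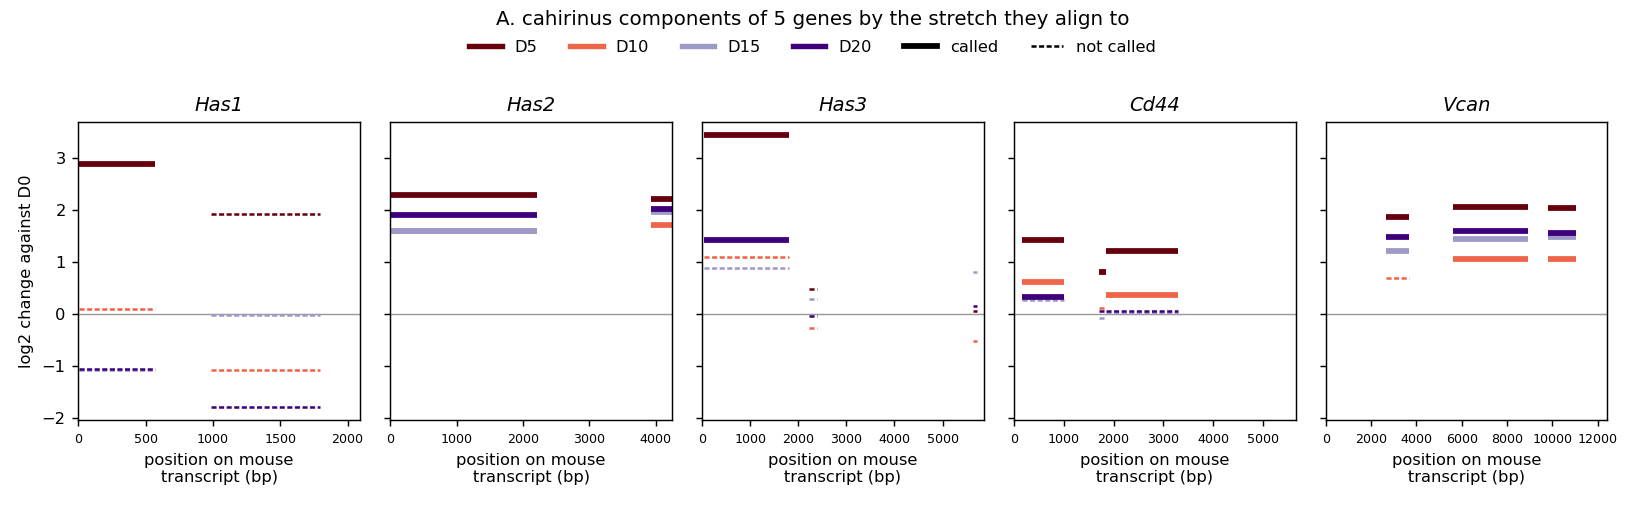
Log2 change from D0 of each *A. cahirinus* component (y axis) drawn over the stretch of the *M. musculus* transcript it aligns to (x axis, bp from the transcript start), coloured by day, thick where called and thin dashed where not. At D5 the drawn components of *Vcan* and *Has2* lie between 1.86 and 2.28, and the 3′ components of *Has3* are at 0.47 and 0.06 while the coding one is at 3.43. The *Vcan* component that aligns best to a shorter transcript is not drawn.

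The other genes of the pathway were 37, of which 35 had a *M. musculus* gene number and 30 an *A. cahirinus* component. In *A. cahirinus* 10 were called higher and 4 lower at D5 among 29 with a value, 12 and 4 of 30 at D10, 13 and 4 of 30 at D15, and 8 and 5 of 29 at D20. In *M. musculus* the counts were 15 and 6 of 34 at D5, 16 and 5 at D10, 13 and 4 at D15, and 15 and 3 at D20. Their median log2 change lay between 0.09 and 0.58 for *A. cahirinus*, and between 0.45 and 0.63 for *M. musculus*, below that of the 8 members at every time. Over the genes named in both species, 31.4%, 21.3%, 18.4% and 12.9% were called higher and 11.2%, 11.7%, 14.6% and 15.0% lower from D5 to D20 for *A. cahirinus*, with 23.2%, 21.2%, 18.5% and 17.0% higher and 17.1%, 17.6%, 16.0% and 15.4% lower for *M. musculus*. Their median log2 change was 0.21, 0.10, 0.04 and −0.03 for the former, and between 0.03 and 0.05 for the latter.

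Of 7 genes that supply the sugar precursors, *Ugdh*, the dehydrogenase that makes UDP-glucuronic acid, was called higher on every day in both species, between 0.45 and 1.05 in *A. cahirinus* and between 0.49 and 0.68 in *M. musculus*. *Ugp2*, which makes its substrate UDP-glucose and also feeds glycogen, was called lower on every day, by −0.97 to −1.34 and by −0.67 to −0.89. On the hexosamine branch, *Gfpt1*, the entry enzyme, was called higher from D10 on in *A. cahirinus* and on all days in *M. musculus*. *Gfpt2*, for a second form of that enzyme, was called lower in *M. musculus* at D10, at −0.61, and on no other day in either species. *Uap1*, which makes UDP-N-acetylglucosamine, was called on all days in *A. cahirinus*, at 0.998, 1.03, 0.69 and 0.61, and at D5 and D10 in *M. musculus*, at 0.68 and 0.31. *Pgm3*, of the same branch, was called at D10, D15 and D20 in *A. cahirinus*, at 0.70 to 0.72, and on no day in *M. musculus*, at 0.00 to 0.29.

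Among 9 other degradation genes, *Cemip* and *Cemip2*, which code for proteins that start hyaluronan breakdown at the cell surface, were called higher on all days in *A. cahirinus*, and *Cemip2* in *M. musculus* too. *Cemip2* changed by 0.55 to 1.04 in the former and 0.54 to 0.88 in the latter. *Cemip* changed by 1.63, 1.67, 0.99 and 0.72 in *A. cahirinus*, against 3.26, 2.44, 2.23 and 1.59 in *M. musculus*, where D15 was not called. The lysosomal exoglycosidase gene *Gusb* was called on all days in both species, at 0.76 to 1.46 and 1.29 to 1.51. *Hexa*, for a lysosomal hexosaminidase subunit, was called on all days in *M. musculus*, at 0.98 to 1.08, and on 3 days in *A. cahirinus*, at 0.39 to 0.73. *Hyal4* was called lower in *M. musculus* at D20, at −2.15. The sperm gene *Spam1* and *Hyal5* had no component and were below 1 read at D0 in *M. musculus*.

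Of the 7 receptors other than *Cd44*, *Stab1* on all days and *Lyve1* at D10 were called in opposite directions in the species, which has no test. *Stab1*, a clearance receptor of macrophages and sinusoidal endothelium, was called lower on every day in *A. cahirinus*, at −0.55, −0.60, −0.93 and −0.999, and higher on every day in *M. musculus*, at 2.27, 1.79, 1.53 and 1.92. *Lyve1*, the hyaluronan receptor of lymphatic vessels and some macrophages, was called higher at D5 in both, at 0.57 and 2.25, then lower in *A. cahirinus* at D10, D15 and D20, at −0.80, −1.29 and −1.72, while *M. musculus* had 0.96 at D10, called. *Tlr4*, an innate immune receptor, was called higher at D5, D10 and D15 in *A. cahirinus*, at 2.20, 1.28 and 0.65, and on all days in *M. musculus*, at 0.73 to 0.84. *Hmmr*, a hyaluronan-binding protein tied to cell division, was called at D5 and D15 in *A. cahirinus*, at 1.60 and 0.73, and on no day in *M. musculus*. *Layn* was called on 2 days in *A. cahirinus* and on 4 in *M. musculus*. *Tlr2* was called on all days in *M. musculus*, with 1.73 at D5 and 1.53 at D10, and on none in *A. cahirinus*, where the changes of 1.66 and 1.26 on those days started from 4.17 reads at D0. The summed endothelial markers were 0.685 to 1.12 times D0 in *A. cahirinus* and 1.43 to 1.93 times in *M. musculus*, and the summed macrophage markers 1.14 to 4.94 times and 1.92 to 2.98 times. The endothelial markers went both ways in *A. cahirinus*. *Vwf* was called higher at D5, D10 and D15, *Pecam1* lower on all days, *Kdr* lower at D15 and D20 and *Cdh5* lower at D20. The part of either cell type in the receptor values was not tested.

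In the aggregate and link group, *Acan*, the cartilage counterpart of versican, was called lower at D5 and D20 in *A. cahirinus*, at −0.98 and −1.06, and on all days in *M. musculus*, at −0.59 to −1.37. *Hapln1*, the link protein of cartilage, was called lower on 3 days in each species. Of the other cartilage markers, *Col2a1* was called higher on every day in both species, by at least 0.92 for *A. cahirinus* against at least 1.49 for *M. musculus*, though its *A. cahirinus* component had another gene as best hit. *Col9a1* was called lower at D5 in both, at −1.28 and −0.86, and higher at D20 in both, at 1.51 and 0.78. *Comp* was called lower on every day in *A. cahirinus* and higher at D5 and D10 in *M. musculus*. *Hapln4* and *Bcan*, of brain matrix, were called higher on some days in *M. musculus* from means of 0.698 and 3.21 reads at D0, so their changes rest on few reads. Among heavy-chain and cross-linking genes, *Ptx3*, a partner of TSG-6 in hyaluronan matrices, was called higher on every day in both species, at 3.63, 2.69, 3.24 and 3.16 for *A. cahirinus* against 3.06, 2.32, 2.89 and 3.33 for *M. musculus*. *Itih5*, a heavy-chain gene, was called lower at D5 in both, at −1.11 and −1.07, and higher at D15 in *A. cahirinus* at 0.42 and at D10, D15 and D20 in *M. musculus*, at 0.97 to 1.45. *Itih2* was called lower in *M. musculus* at D5 and D10, at −1.90 and −1.09, and had no component.

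**Figure D4:**
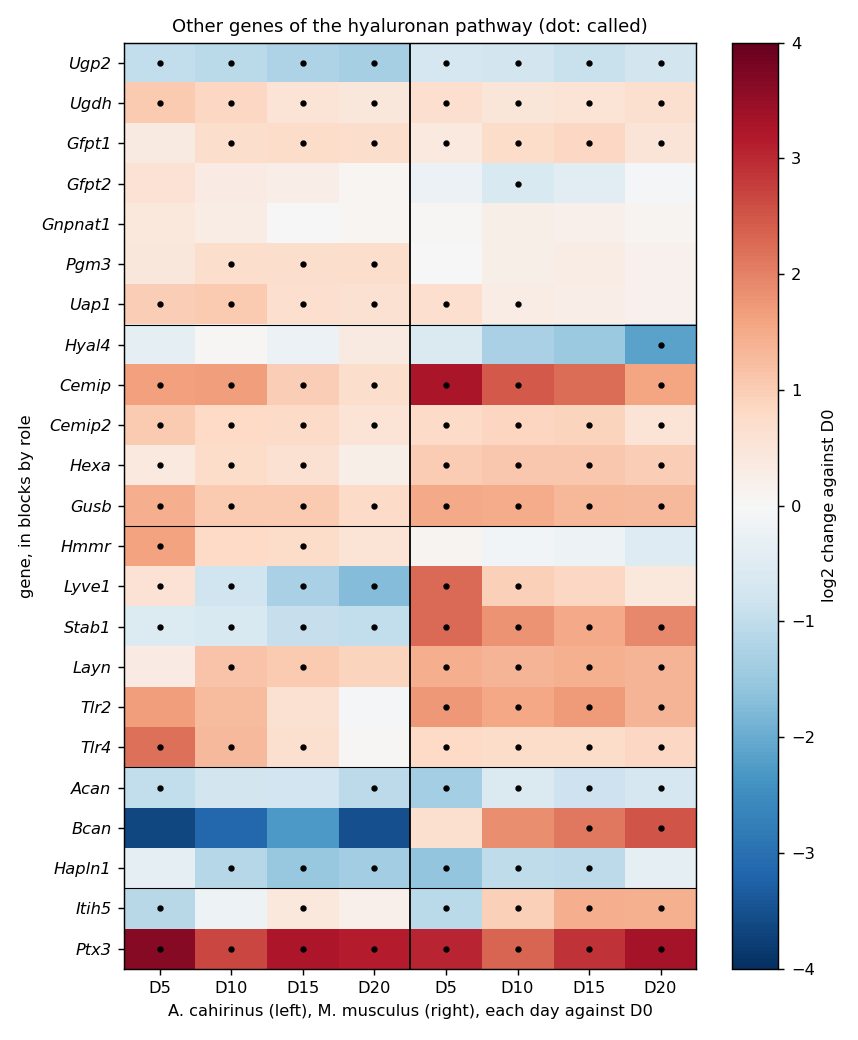
Log2 change from D0 (colour, red higher and blue lower after injury, limited to the range −4 to 4) of 23 other pathway genes that reached a mean of 10 in some group of each species (rows, in blocks by role) on 4 days in *A. cahirinus* (left columns) and *M. musculus* (right columns), with a dot where called. *Stab1* is blue throughout on the left and red throughout on the right, and *Ptx3* is red in all 8 columns, from 2.32 to 3.63.

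The genes most like each member over the 8 log2 changes were found among 12127 others that reached a mean of 10 in some group of each species, by Euclidean distance. *Hyal2* and *Cd44* had close neighbours, *Vcp* and *Nop56* at 0.24 and 0.26, and *1110008P14Rik*, *Eif6* and *Smim3* at 0.27 to 0.31. *Tnfaip6* was nearest to *Tubb2b* (0.57), *Rab31* (0.80) and *S1pr3* (0.84), and *Has2* to *Fblim1* (0.74), *Ripk3* (0.79) and *Fkbp11* (0.88). *Hyal1* was nearest to *P2ry13* (0.99), *Ptgir* (1.11) and *Pik3r5* (1.16), and *Has3* to *Ms4a4d* (1.03), *Krt78* (1.14) and *Clec4a1* (1.15). The *A. cahirinus* component of *Krt78* is the one that also stands for the marker *Krt5*. *Vcan* had *Igfbp4* (1.26), *Dancr* (1.33) and *Crabp1* (1.52), and *Has1*, the member with the fewest *A. cahirinus* reads, had no gene nearer than 1.79. No member was nearest to another member, the closest pair being *Hyal2* and *Cd44* at 1.67.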

How the data were processed

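Ear RNA of *A. cahirinus* and *M. musculus* was sequenced in strand-specific, ribosomal RNA-reduced libraries. The authors assembled *A. cahirinus* with Trinity, estimated reads with RSEM and compared days with EBSeq; per the labels the build was mm10. The deposited tables hold fold changes (a ratio of D0 to the later day) and a posterior probability (a score from 0 to 1). The authors' deposited BLASTN output gives identity in percent, and alignment length, positions and bit score, recorded here as other. These columns are the authors' comparisons; they were used because the tables hold nothing else, with group means solved exactly from each table's 2 kinds of fold change (checked on simulated data). Once each table was put on the scale of the D5 table by 1 factor, D0 means agreed between a species' 4 tables within 0.0044 (log2). No values per animal were used, so no test was added and no replicate was left out.

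The members, lists and tests were chosen with earlier results of these data known. The *M. musculus* tables carry gene numbers. The reference transcripts lie in the string order of gene identifiers, so numbers were placed between 1992 known numbers by sequence and GRCm38 position (minimap2 2.31-r1302, GENCODE M21). With known numbers held out in 5 parts, 1689 were placed right, 4 wrong and 299 not placed; *Hapln2*, *Ambp*, *Pdgfra* and *Mmp9* were not placed. *Has2* and *Has3* are among the known numbers. The *A. cahirinus* component of a gene was the one with the top BLASTN bit score below 99% identity. Summed marker levels kept only genes that were the best hit of their component.

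Genes named in the text are the 8 members, the pathway genes called on at least 1 day, and the 3 nearest genes to each member; *Naa80*, the antisense genes, markers of other cell types and list genes that were not called or not placed are named besides. Some genes of the lists are counted but not reported here. Alternatives were a posterior probability of 0.99, a least mean of 10, a least log2 change of 1, any identity, summed components, a pseudocount of 1, the second fold change, equal totals, centring on the median and the longest transcript. Counting errors treat a group as 3 libraries and cover counting only. Software was Python 3.11.15 with Biopython 1.88, NumPy 2.4.6, SciPy 1.17.1, pandas 2.3.3 and matplotlib 3.10.9.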

Additional observations from a re-analysis of the deposited data

Results flagged for a closer look

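These results were picked out because the same gene was called in opposite directions in the species on the same day. The difference itself was not tested in any of them, since the tables hold no values per animal.

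*Hyal1* at D10 was called higher in *A. cahirinus* (log2 change 1.23) and lower in *M. musculus* (−0.71), a difference of 1.94. The *M. musculus* reads of *Hyal1* may be shared with *Naa80* and *Hyal3* at the 3′ end. The *A. cahirinus* component over that end, not counted to *Hyal1*, changed by 0.30 at D10, not called. *Lyve1* at D10 was called lower in *A. cahirinus* (−0.80) and higher in *M. musculus* (0.96), a difference of −1.76. *Stab1* was called lower in *A. cahirinus* and higher in *M. musculus* on all 4 days, with differences of −2.81 (D5), −2.39 (D10), −2.46 (D15) and −2.92 (D20). With a least log2 change of 1, none of these remained an opposite call: *Stab1* was then not called in *A. cahirinus* on any day, *Lyve1* at D10 in neither species, and *Hyal1* at D10 not in *M. musculus*.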

How the results depend on the processing

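No paired analysis was possible because the tables hold no values per animal, and for the same reason no replicate could be left out in turn. Of the 64 recounts of called members, 60 stayed within 1.5 times the reported count; the other 4 came from a least log2 change of 1, which left 3 members called higher in *A. cahirinus* at D10 and 3 in *M. musculus* at D15, and 0 called lower (*Hyal1* lost) in *M. musculus* at D10 and 0 at D15. The same least change lowered the pathway counts. In *A. cahirinus* it left 1 called lower at D5, 6 higher and 2 lower at D10, 3 higher at D15 and 1 higher at D20. In *M. musculus* it left 9 higher at D5, 8 higher and 2 lower at D10, 8 higher and 2 lower at D15, and 9 higher and 1 lower at D20. A threshold of 0.99, a least mean of 10 and components at any identity moved no count by more than 1.5 times. Of 320 recomputed log2 changes of members, 317 moved by less than 1.5-fold and none of the called ones changed sign; the 3 that moved came from summed components, *Has1* at D5 (2.51) and D10 (−0.34) and *Has3* at D5 (2.55). Of 236 recomputed changes of the other pathway genes in *A. cahirinus*, 8 moved by over 1.5 times, all with summed components and in *Stab2*, *Hapln3*, *Hapln4* and *Itih4*, which were not called there. All 48 recomputed mean differences between species kept their sign, with *Has2* between −0.22 and −0.12 and *Has3* between 0.20 and 0.99; the mean without D15, among them, was added after seeing the data. With the longest transcript the *Has2* share of the synthases was 70.6%, 60.4%, 84.0%, 83.2% and 84.8% from D0 to D20 for *A. cahirinus*, against 38.6%, 48.9%, 59.5%, 61.4% and 62.9% for *M. musculus*; the ratio of synthases to hyaluronidases became 0.841, 1.34, 1.11, 1.43 and 1.71 for *A. cahirinus*, against 0.453 (D0), 1.45 (D15) and 0.929 (D20) for *M. musculus*, and *Hyal2* to *Hyal1* did not change. This alternative uses another contig length for *Has2* in *A. cahirinus* and another transcript length for *Has1* and *Has3* in *M. musculus*. It leaves the lengths of *Hyal1* and *Hyal2* as they were, so the unchanged ratio of that pair is no check on it. Among the 8 members depth limits *Has1* in *A. cahirinus* most, where the D20 mean of 2.26 has a counting error of about 38.1%.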
